A study of Arabidopsis thaliana with 6 samples.

Results

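SMALL AUXIN UP RNA (SAUR) genes encode short plant proteins and were named for transcripts that accumulate quickly after auxin. The 52 genes described here are the Arabidopsis members of this family that were chosen by gene identifier, including SAUR72 (AT3G12830) and the arrays of neighbouring copies on chromosomes 1, 3, 4 and 5, out of 39351 genes and assembled loci in the table. The gene table of the reference names 80 SAUR genes, so 28 further ones, all of them also in the deposited file, are not described. The members were chosen by family and gene identifier, without a cutoff on a measured value, but with earlier results of these data known. SAUR72, for which the study lists primers, was named in that choice.

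The libraries came from seedlings of the nsra mutant that carried the transgene pNSRa:NSRa-HA, so the only intact copy of NSRa, a nuclear speckle RNA binding protein, bore an HA tag and was driven by its own promoter. All plants had received the synthetic auxin NAA for 24 h and were UV crosslinked, so no library without auxin or without the tagged protein enters the comparisons. The RIP libraries held RNA recovered with an antibody against HA, the Mock libraries RNA recovered with mouse IgG, and the Input libraries RNA of the lysate, with 2 libraries in each group. The labels give the NAA dose as 100 nM or 1 µM and the age as 10, 14 or 15 days, and nothing says whether the 2 libraries of a group came from separate plant material, so p-values measure only the spread between these libraries.

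In the acid growth model, auxin induces SAUR proteins, which inhibit clade D PP2C phosphatases at the plasma membrane. Those phosphatases otherwise switch off the plasma membrane H+-ATPases (AHA proteins), so SAUR proteins keep the proton pumps active, the wall becomes more acidic and cells expand. SAUR mRNAs are known for short half-lives, and a conserved downstream (DST) element near the 3′ end of some of them marks transcripts for fast decay. Most SAUR genes have no intron.

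The members shared a simple structure. In the TAIR10.1 annotation 49 of the 52 had a single merged exon, against 20.8% of 27442 protein-coding genes in the table. Their merged exon length ranged between 427 and 1402 bases with a median of 828.5 bases, against a median of 1552 bases over those protein-coding genes. Their coding length had a median of 327 bases and a range of 261 to 561 bases. Of the 52, 35 lay in 8 tandem runs, counted as members no more than 20 kb from the next one. The runs with the most members were the 8 genes between SAUR61 and SAUR67 (chr1:10301377-10323239), the 6 of SAUR19 to SAUR24 (chr5:5962773-5984308) and the 6 between SAUR50 and SAUR5 (chr4:16582183-16599568).

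Near-identical copies matter here because a read of 75 bases may match more than 1 gene. The SAUR19 to SAUR24 proteins, which promote hypocotyl cell expansion and are the copies in which inhibition of PP2C.D phosphatases was worked out, show how close the copies are. The first 60 coding bases of the 6 genes are given with the positions that vary among them in capitals.
SAUR19: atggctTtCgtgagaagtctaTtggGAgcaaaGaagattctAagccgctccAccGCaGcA
SAUR20: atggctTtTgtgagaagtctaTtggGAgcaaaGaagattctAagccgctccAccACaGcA
SAUR21: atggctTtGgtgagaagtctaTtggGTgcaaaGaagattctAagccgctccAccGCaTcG
SAUR22: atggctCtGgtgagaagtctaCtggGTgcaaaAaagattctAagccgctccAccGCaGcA
SAUR23: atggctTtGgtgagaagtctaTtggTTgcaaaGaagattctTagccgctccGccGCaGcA
SAUR24: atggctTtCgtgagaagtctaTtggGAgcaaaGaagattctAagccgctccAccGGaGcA
These starts lie on chromosome 5 at chr5:5963246-5963305 (minus strand), chr5:5966521-5966580 (minus), chr5:5968527-5968586 (plus), chr5:5974904-5974963 (minus), chr5:5976030-5976089 (plus) and chr5:5983840-5983899 (plus), in the order of the genes. Even so, few windows of 75 bases in their transcripts recur elsewhere in the genome. Over all 52 members 9 had any such window and 4 had more than 10% of their windows shared. The share of windows found elsewhere in the genome was 27.6% in SAUR67, 22.7% in SAUR63, 19.5% in SAUR75 and 14.6% in SAUR62. SAUR67 and SAUR63 had some of these windows in common, as did SAUR75 and SAUR62. Values of these 4 genes are uncertain to that extent, since how reads with several matches were treated is not given in the sources used here.

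The depth of the libraries set what could be seen. The RIP libraries held 1599136 and 977230 reads, the Mock libraries 197923 and 154149, and the Input libraries 27494964 and 25274634, as recovered from the deposited FPKM (reads divided by exon length in kilobases and by library total in units of 1e+06 reads). A level of 3 reads was 1.88 and 3.07 CPM (reads per 1e+06 reads) in RIP, 15.2 and 19.5 CPM in Mock, and 0.109 and 0.119 CPM in Input. Of the 9 leaf and root markers, RBCS1A, LHCB1.3 (leaf) and PYK10 (root) were present in all libraries, while GL1 (leaf hairs), COBL9 and EXPA7 (root hairs) were found in Input only. SCR and SHR (root) and FAMA (guard cells) had 13.8 to 26.2 FPKM in RIP, above their 8.33 to 11.9 FPKM in Input, with SCR and SHR at 0 in both Mock libraries and FAMA at 0 and 16.4 FPKM in Mock. None of these 3 passed in RIP against Input (adjusted p of 0.0916 to 0.783 in limma). SCR and SHR were called higher in RIP than in Mock, as were 34.3% of all features tested. EXPA7, with 0 RIP reads, was called lower in RIP than in Input (log2 fold change -3.26, adjusted p = 0.000184 in limma), as were 5.78% of all features. The floral gene AG was at 0 outside 1 Input library. The seed storage gene CRA1, which marks an organ that a seedling lacks, had 7.71 and 3.29 FPKM in RIP, 0 and 0 in Mock, and 0.117 and 0.0636 in Input. The transcript of the tagged gene NSRa itself had 145 and 105 FPKM in RIP, 181 and 60.3 FPKM in Mock, and 11.4 and 12.1 FPKM in Input, so it was high in both kinds of pull-down.

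SAUR transcripts were found in the seedlings at low to moderate levels. Of the 52 members 49 had reads in Input, 30 had reads in at least 1 RIP library (19 in both), and 4 had reads in 1 Mock library, none in both. SAUR2, SAUR25 and SAUR11 were at 0 in all 6 libraries. In whole seedlings, fewer cells with a transcript and less of it per cell cannot be told apart. The test covered features that reached 1 FPKM in 2 or more libraries, 19997 in all, and 40 of the 52 members were among them. The 12 members left out had at most 1.05 FPKM in any Input library, and 1 of them, SAUR1, had reads in RIP (5 and 0). The plot of levels in each library shows all 52 members.

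**Figure D1:**
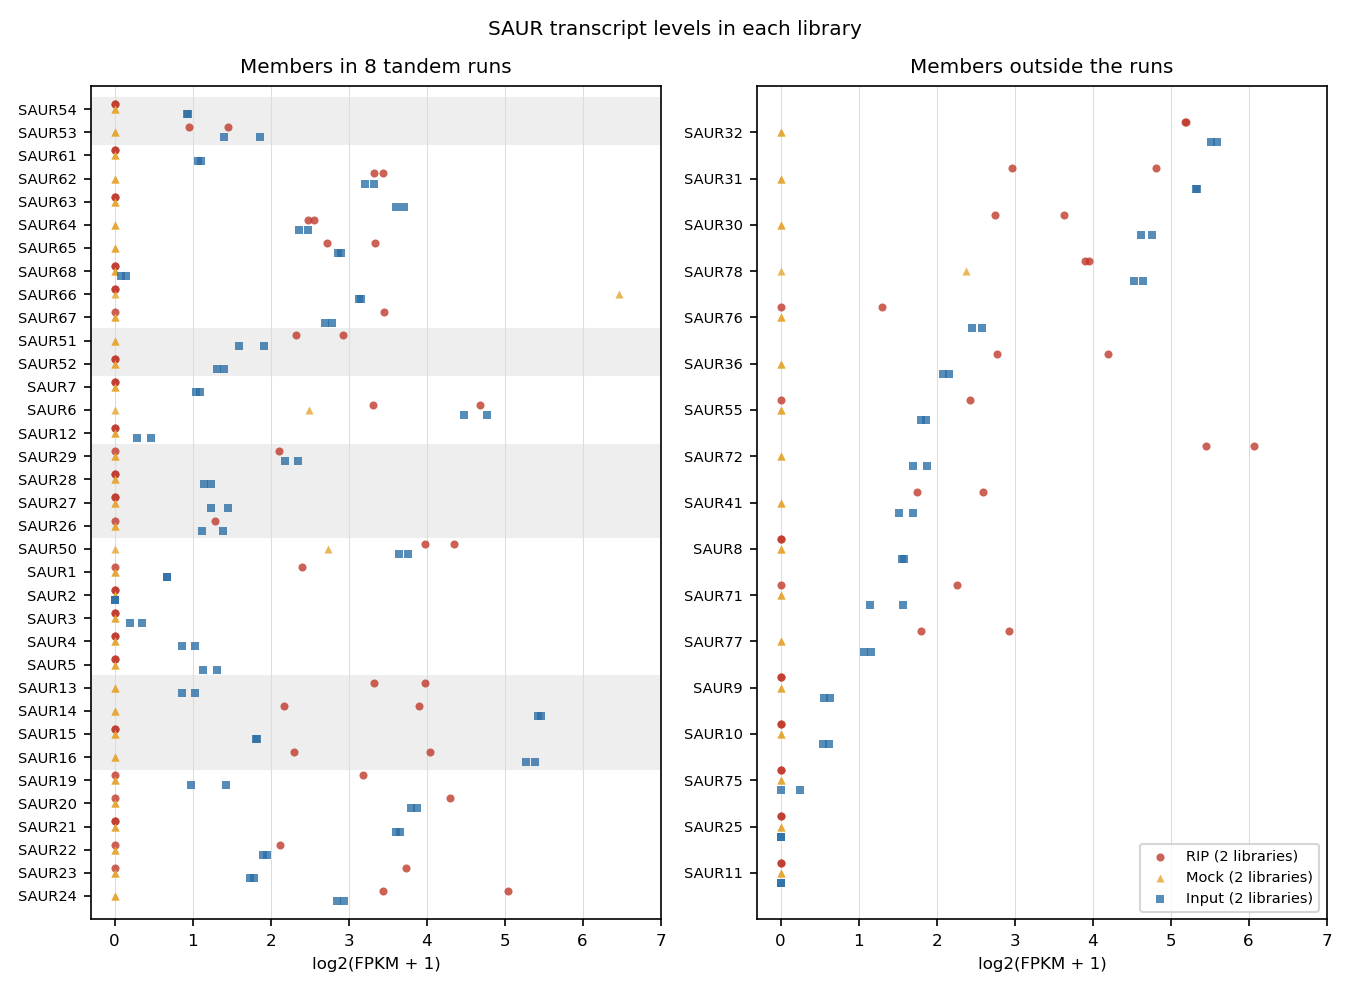
Level of each of the 52 SAUR genes in log2(FPKM + 1), with 1 point per library for RIP (circles), Mock (triangles) and Input (squares). The left panel holds the 35 genes in 8 tandem runs (alternate shading) in chromosomal order, and the right panel the 17 others by Input level. Input pairs lie close together, RIP pairs are often apart, and nearly all Mock points are at 0. Both RIP points of SAUR72 lie far to the right of its Input points.

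SAUR72 was the member with the highest level in RIP. It belongs to the SAUR41 subfamily, whose members act in cell expansion, and lies at chr3:4078651-4079627 on the minus strand as a single exon. SAUR72 had 65.9 and 42.9 FPKM in RIP, 0 and 0 FPKM in Mock, and 2.23 and 2.67 FPKM in Input. These are 103 and 41 reads in RIP, 0 and 0 in Mock, and 60 and 66 in Input, although the Input libraries were many times deeper. Both RIP libraries were thus above both Input libraries and both Mock libraries, with no overlap. Its mean CPM in RIP was 22.2 times that in Input, and in the limma fit its log2 fold change on the log2(FPKM + 1) scale was 3.98 ± 0.28 (SE), with an adjusted p of 0.00153. Against the Mock floor of 3 reads per library (17.3 CPM on average) its mean of 53.2 CPM in RIP was at least 3.07-fold higher. SAUR72 was number 205 among the 19997 features when ordered by this fold change.

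None of the 75-base windows of SAUR72 recurs in the genome, and its nearest coding sequence, SAUR41, is 62.8% identical. Its coding sequence starts like those of its relatives SAUR71 and SAUR41, which are given for comparison as the first 30 coding bases.
SAUR72: atgaagcaactaatccgtcgtctctctcgc
SAUR71: atgaaacaactaatccgccgtttatcgcgt
SAUR41: atgaagcatctcatccgccgcctctctaga
The study's primer list holds a pair for SAUR72, which each match the genome at 1 place, both in its coding sequence, and delimit 192 bases between chr3:4079125-4079149 (forward primer) and chr3:4079293-4079316 (reverse primer).
SAUR72 forward primer: tcccgtcaccgattagatcctgaac
SAUR72 reverse primer: tcgttagcgcggagctacttaacc
The values of the 2 relatives rest on few RIP reads, 7 and 2 for SAUR41 and 0 and 3 for SAUR71. At their Input share 4.62 reads of SAUR41 and 3.34 of SAUR71 would fall in the RIP libraries together. SAUR41 (AT1G16510), expressed in the root endodermis and quiescent centre, had 5.02 and 2.35 FPKM in RIP, 0 and 0 in Mock, and 2.25 and 1.86 in Input. SAUR71 (AT1G56150) had 0 and 3.78 FPKM in RIP, 0 and 0 in Mock, and 1.97 and 1.22 in Input. The log2 fold changes of RIP over Input were 0.56 ± 0.32 for SAUR41 and -0.23 ± 0.82 for SAUR71 (SE), with adjusted p of 0.327 and 0.918 in limma. Whether SAUR72 differed from either was not tested.

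SAUR13 (AT4G38825, chr4:18121526-18122010, plus strand) was the other member called higher in RIP than in Input. It had 9.03 and 14.8 FPKM in RIP, 0 and 0 in Mock, and 1.05 and 0.816 in Input. Behind these values were 7 and 7 reads in RIP, 0 and 0 in Mock, and 14 and 10 in Input. Both RIP libraries were above both Input libraries, at 12.8 times the mean CPM, with a log2 fold change of 2.70 ± 0.26 (SE) and an adjusted p of 0.00415 in limma. Its mean RIP level of 5.77 CPM was below the Mock floor of 3 reads, so no fold against Mock is given. SAUR13 overlaps AT4G38820 on the opposite strand over 433 bases, and that gene had 0 reads in all 6 libraries.

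Across the family 2 of 40 tested members (5.0%) were higher in RIP than in Input, against 1.48% of all features tested, and 2 of 40 (5.0%) were lower, against 5.78%. A call needed a log2 fold change above 2, or below -2, and a Benjamini-Hochberg adjusted p under 0.01 in limma. The members' median log2 fold change was -0.76, beside -0.52 over all features tested, and 0.08 after quantile normalization. Of the members 13 (32.5%) were above 0, beside 32.9% of all features. Both RIP libraries were above both Input libraries in 8 of the 40 members, beside 22.7% of all features, and below both in 19 of the 40 (47.5%), beside 50.2%. The shares above 0, above both and below both Input libraries lie close to those of all features. The share called higher rests on 2 genes, and 1 of them, SAUR72, was named when the members were chosen. The plot of fold changes orders the 40 members.

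**Figure D2:**
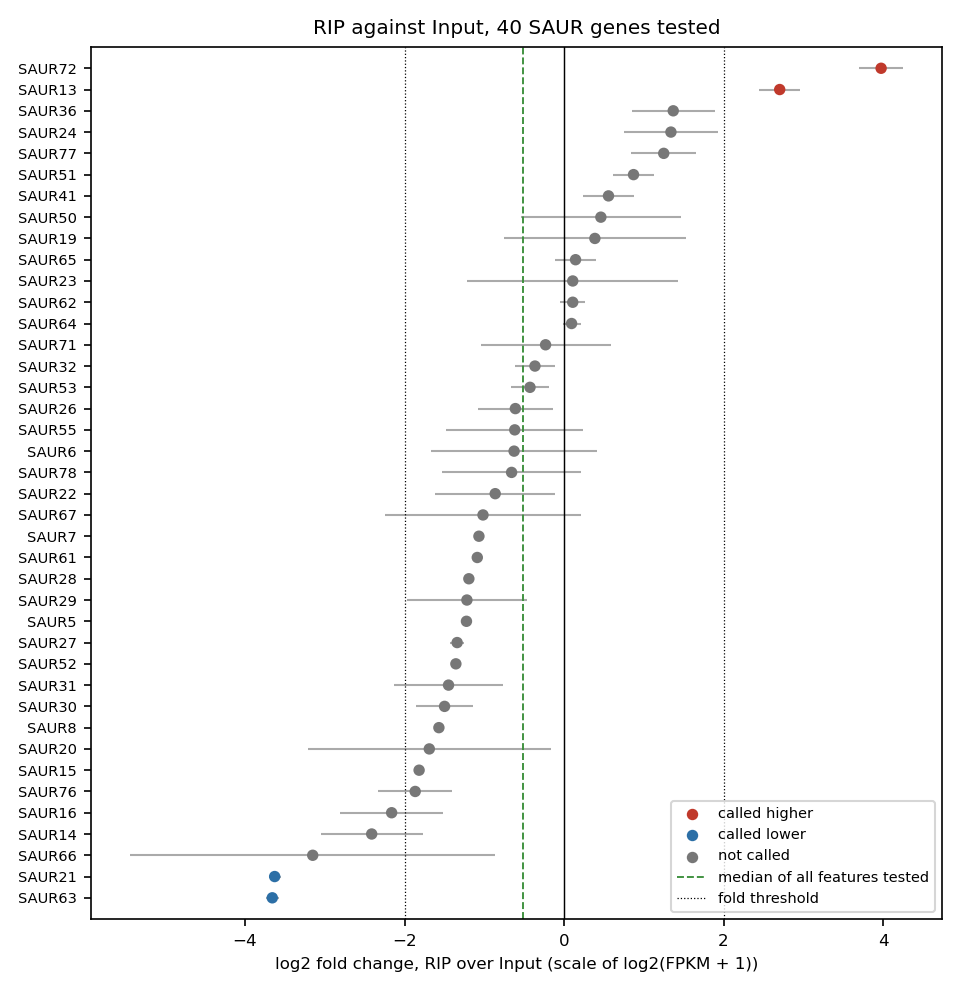
Log2 fold change of RIP over Input for the 40 SAUR genes tested, as points with bars of 1 standard error, on the log2(FPKM + 1) scale. Dotted lines mark the fold threshold and the dashed line the median of all 19997 features tested (-0.52). SAUR72 and SAUR13 lie above the upper threshold, and SAUR63 and SAUR21 below the lower threshold, with calls in colour.

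**Figure D3:**
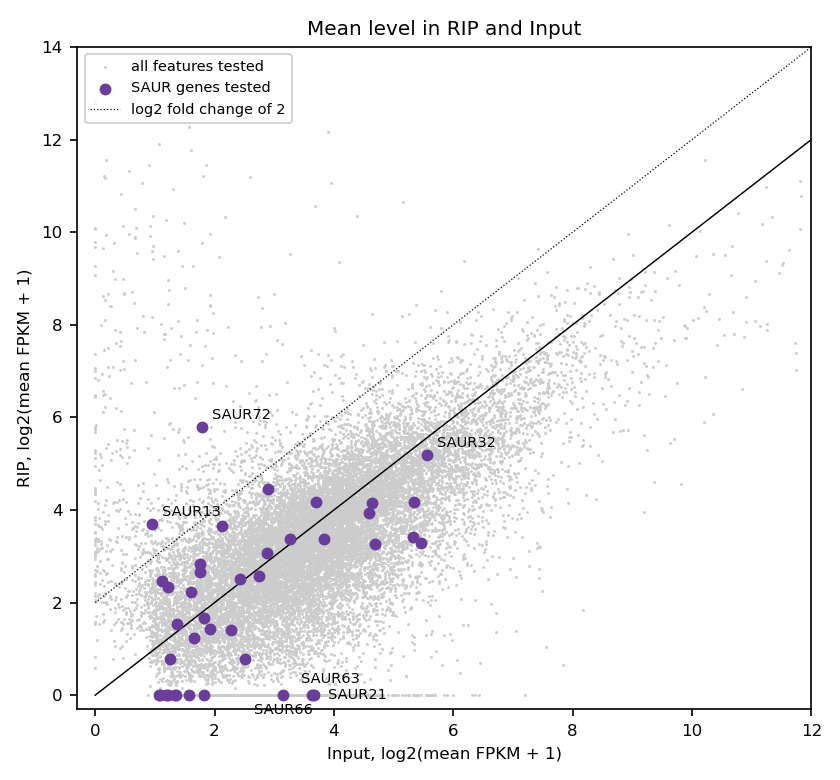
Mean level in RIP (y axis) against mean level in Input (x axis), both as log2(mean FPKM + 1), for all 19997 features tested (grey) and the 40 SAUR genes among them (purple). The solid line is equality and the dotted line a log2 fold change of 2. SAUR72 and SAUR13 lie above the dotted line, whereas SAUR63, SAUR21 and SAUR66 lie at 0 in RIP.

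Both calls depended on the spread assumed. In limma on only RIP and Input, which called 1.63% of all features higher and 5.96% lower, SAUR72 passed (adjusted p = 0.00529) and SAUR13 did not (adjusted p = 0.0185). Without Input replicate 1 or Input replicate 2 neither passed, with adjusted p of 0.0379 and 0.0339 for SAUR72 and 0.0591 and 0.0687 for SAUR13, and without Mock replicate 1 or Mock replicate 2 SAUR13 had adjusted p of 0.0174 and 0.0178. With voom on the recovered reads the adjusted p was 0.1003 for SAUR72 and 0.0562 for SAUR13. Over the settings plotted, the lowest log2 fold change was 2.97 for SAUR72 and 1.49 for SAUR13.

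**Figure D4:**
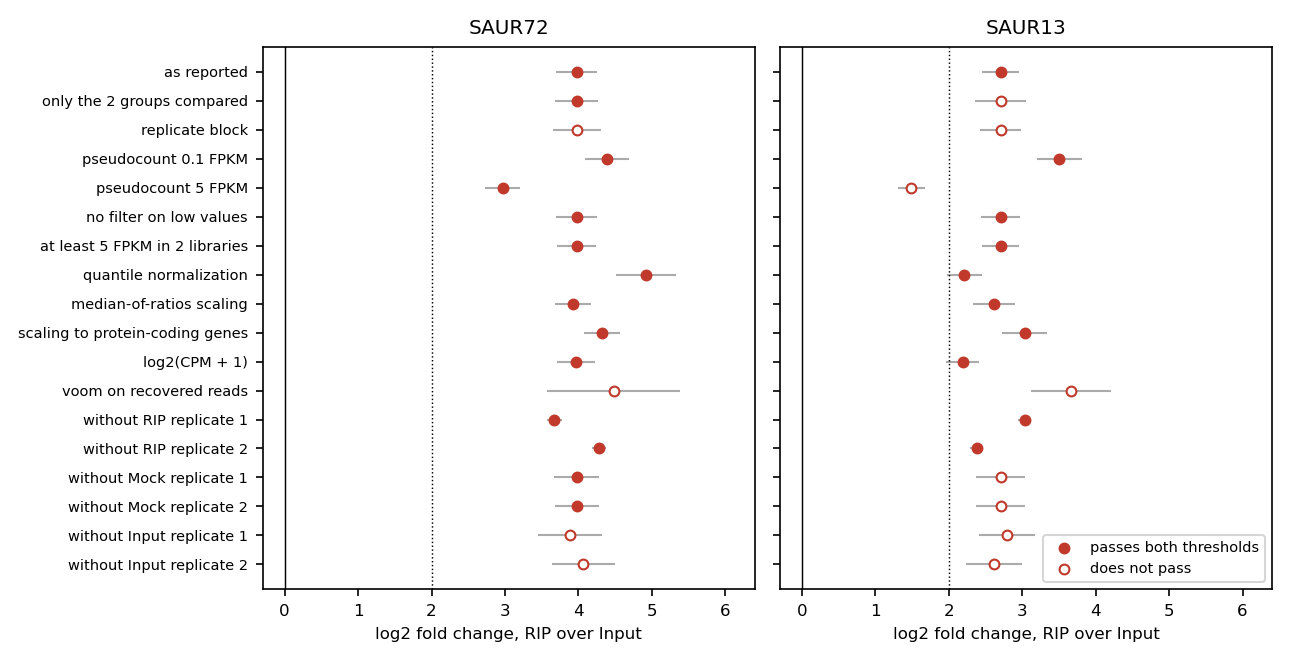
Log2 fold change of RIP over Input for SAUR72 (left) and SAUR13 (right) as reported and in 17 other settings, with bars of 1 standard error. Filled points pass the fold threshold (dotted line) and the adjusted p threshold of 0.01, and open points do not. SAUR72 is above the fold threshold throughout, and SAUR13 drops below it with a pseudocount of 5 FPKM.

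The members called lower had no read in RIP. SAUR63 (AT1G29440), whose group promotes hypocotyl and stamen filament elongation, had 0 and 0 FPKM in RIP, 0 and 0 in Mock, and 11.2 and 12.1 in Input, from 185 and 184 Input reads. SAUR21 (AT5G18030), of the SAUR19 to SAUR24 run, had 0 and 0 FPKM in RIP, 0 and 0 in Mock, and 11.1 and 11.6 in Input, from 257 and 246 Input reads. At their Input share, 18.0 reads of SAUR63 and 24.6 reads of SAUR21 would fall in the RIP libraries together. Against the RIP floor of 3 reads per library, SAUR63 was at least 2.83-fold lower in RIP and SAUR21 at least 3.86-fold lower. Their fitted log2 fold changes of -3.66 ± 0.08 and -3.63 ± 0.07 (SE, adjusted p = 8.74e-05 for each in limma) depend on the pseudocount and are no bound. The zeros in RIP and Mock add no spread, so the small SE and p reflect little more than the 2 Input libraries. Neither gene passed with a pseudocount of 5 FPKM, after quantile normalization or with voom. SAUR63 lies within AT1G29435 on the opposite strand, which had 0 reads in all 6 libraries. Of its 75-base windows 22.7% recur in the genome, some of them in SAUR67, which had 13 and 0 reads in RIP. SAUR66 was not called lower, although it also had 0 RIP reads where 19.7 would be reached at its Input share. In limma over all 6 libraries its SE was 2.29 and its adjusted p 0.449. In limma on only RIP and Input it was called lower (adjusted p = 0.00246), again from 2 RIP zeros.

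Absence from RIP was common in the family but often not measurable. Of the members 19 had reads in Input and none in RIP, and for 13 of them fewer than 3 RIP reads would be reached at the Input share. Of the 19, 8 had an adjusted p under 0.01 in limma with log2 fold changes of -1.82 to -1.07, within the fold threshold. Their p compares Input with 2 zeros that add no spread, and for SAUR61, SAUR7, SAUR28, SAUR27 and SAUR5 among them 1.95 to 2.90 RIP reads would be reached at the Input share, so nothing is read from these 8 values of p. The 8 also included SAUR15, known as SAUR-AC1 and among the first auxin-induced genes of Arabidopsis to be studied, with 0 and 0 FPKM in RIP, 0 and 0 in Mock, and 2.54 and 2.51 in Input.

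The 5 members with the highest Input levels had lower values in both RIP libraries, without passing the test. SAUR32 (AT2G46690), whose overexpression alters the apical hook, had 35.6 and 35.4 FPKM in RIP, 0 and 0 in Mock, and 44.7 and 47.3 in Input. SAUR14 (AT4G38840) had 14.0 and 3.52 FPKM in RIP, 0 and 0 in Mock, and 43.3 and 42.2 in Input. SAUR31 (AT4G00880) had 27.0 and 6.81 FPKM in RIP, 0 and 0 in Mock, and 39.2 and 39.5 in Input. The RIP values of SAUR32 were alike, whereas those of SAUR14 and SAUR31 differed several-fold. SAUR16 (AT4G38860), which acts with SAUR50 in the opening of cotyledons in light, had 15.5 and 3.91 FPKM in RIP, 0 and 0 in Mock, and 37.7 and 41.0 in Input. SAUR30 (AT5G53590) had 5.72 and 11.4 FPKM in RIP, 0 and 0 in Mock, and 23.6 and 26.1 in Input. All 5 genes had both RIP libraries below both Input libraries, but none passed in RIP against Input, with adjusted p of 0.0598 (SAUR30) to 0.412 (SAUR32) in limma.

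Several members with moderate RIP levels did not pass either. SAUR36 (AT2G45210), which promotes leaf senescence, had 5.84 and 17.4 FPKM in RIP, 0 and 0 in Mock, and 3.46 and 3.23 in Input (log2 fold change 1.37 ± 0.52 SE, adjusted p = 0.163). SAUR24 (AT5G18080) had 32.0 and 9.81 FPKM in RIP, 0 and 0 in Mock, and 6.22 and 6.70 in Input (1.34 ± 0.59, adjusted p = 0.217). SAUR77 (AT1G17345), whose relatives SAUR76 and SAUR78 bind ethylene receptors, had 6.59 and 2.49 FPKM in RIP, 0 and 0 in Mock, and 1.24 and 1.09 in Input (1.25 ± 0.40, adjusted p = 0.117). In each of these genes both RIP libraries lay above both Input libraries, and the spread between the RIP libraries was large beside that difference.

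The tandem runs showed how far neighbouring copies differed. The SAUR19 to SAUR24 run summed to 32.5 and 20.5 CPM in RIP, 0 and 0 in Mock, and 24.6 and 25.5 in Input. Within it SAUR21 had 0 RIP reads in both libraries, SAUR24 had 32 and 6, SAUR23 had 16 and 0, SAUR22 had 4 and 0, SAUR20 had 0 and 9, and SAUR19 had 0 and 5. Thus in 4 of the 6 copies a single RIP library carried all the RIP reads, and the sum over the run was more even than its members. The run of SAUR13 to SAUR16 summed to 28.8 and 13.3 CPM in RIP, 0 and 0 in Mock, and 67.1 and 69.8 in Input, below Input as a run although SAUR13 was above it.

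The other runs were near or below Input. The SAUR61 to SAUR67 run, whose SAUR62 acts in pollen tube growth, summed to 25.01 and 20.47 CPM in RIP, 0 and 84.3 in Mock, and 36.4 and 37.6 in Input. The run between SAUR50 and SAUR5 summed to 16.3 and 17.4 CPM in RIP, 5.05 and 0 in Mock, and 12.4 and 13.3 in Input. The 95% exact intervals of its RIP sums (10.62 to 23.82 and 10.13 to 27.85 CPM, counting error only) include its Input values. SAUR51 and SAUR52 summed to 3.75 and 6.14 CPM in RIP, 0 and 0 in Mock, and 3.455 and 3.996 in Input, and SAUR54 and SAUR53 to 1.88 and 1.02 CPM in RIP, 0 and 0 in Mock, and 2.55 and 3.60 in Input. Within these pairs SAUR51 had 4.02 and 6.57 FPKM in RIP, 0 and 0 in Mock, and 2.02 and 2.75 in Input, and SAUR53 had 1.73 and 0.944 FPKM in RIP, 0 and 0 in Mock, and 1.64 and 2.63 in Input. The SAUR7, SAUR6 and SAUR12 run summed to 12.5 and 34.8 CPM in RIP, 0 and 6.49 in Mock, and 31.1 and 38.1 in Input. In that run SAUR6 carried all RIP reads. SAUR6 and SAUR7 overlap by 176 bases on the same strand, and how reads in that overlap were assigned was not tested.

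**Figure D5:**
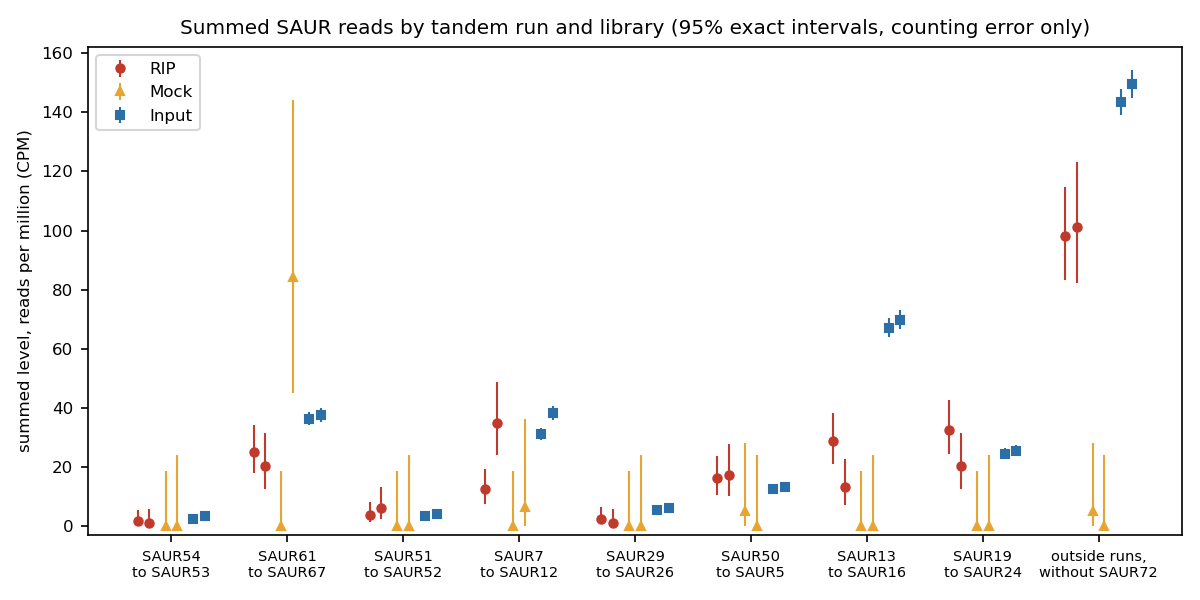
Summed level of the SAUR genes of each tandem run, and of the 16 genes outside the runs other than SAUR72, in CPM on a linear axis, for each RIP, Mock and Input library. Bars are 95% exact intervals of the read number and cover counting error only. Both RIP libraries lie below both Input libraries in the SAUR54 to SAUR53, SAUR61 to SAUR67, SAUR29 to SAUR26 and SAUR13 to SAUR16 runs. The same holds for the genes outside the runs. The RIP sums rest on 3 and 1 reads in the SAUR54 to SAUR53 run and on 4 and 1 in the SAUR29 to SAUR26 run. In these runs each RIP interval includes at least 1 Input value. The only high Mock point is the SAUR61 to SAUR67 run in Mock replicate 2.

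As a whole the 52 members took 285.8 and 257.9 CPM in RIP, 10.105 and 90.82 CPM in Mock, and 328.6 and 350.4 CPM in Input. SAUR72 alone made up 22.5% and 16.3% of the members' reads in RIP, against 0.664% and 0.745% in Input. Without it the other 51 members summed to 221.4 and 215.9 CPM in RIP, 10.105 and 90.82 in Mock, and 326.4 and 347.7 in Input, with both RIP libraries below both Input libraries. Per 1e+06 protein-coding reads the 52 members had 350.1 and 346.3 in RIP, 15.2 and 125.1 in Mock, and 331.3 and 353.2 in Input, and on that scale RIP and Input overlapped. With 2 libraries on each side the smallest p of an exact permutation test is 0.33, and the sums were therefore left untested.

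Against Mock, 11 of 40 members (27.5%) were higher in RIP, beside 34.3% of all features, at a log2 fold change of at least 1 and an adjusted p under 0.01 in limma. The 11 were SAUR41, SAUR62, SAUR64, SAUR65, SAUR51, SAUR36, SAUR32, SAUR72, SAUR13, SAUR24 and SAUR30, and all had 0 reads in both Mock libraries. Only SAUR72 and SAUR32 of these had a mean RIP level above the Mock floor, SAUR32 at least 1.84-fold higher with 31.8 CPM. At their RIP share, 1.13 to 18.7 Mock reads would fall in both libraries together, and fewer than 3 for 7 of the 11. The 2 Mock zeros add no spread to the fit. In limma on only RIP and Mock none of the members and 0 of the 19997 features passed, with an adjusted p of 0.0104 for SAUR72. In that fit 16 of the 40 members had an unadjusted p under 0.05, beside 8628 of the 19997 features. Without Input replicate 1 or without Input replicate 2 the members' median log2 fold change was 1.80, beside 2.13 over all features. Without RIP replicate 1 it was 1.99, beside 2.13.

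None of the 40 was lower in RIP than in Mock in limma, where 0.18% of all features were. None was so at an unadjusted p under 0.05 either. Voom called 10 members lower, beside 1861 of the 19997 features, and quantile normalization 10, beside 1785. In both settings each of the 10 had 0 reads in both RIP and both Mock libraries. Reads in Mock were rare in the family. SAUR66 (AT1G29500) had 0 and 0 FPKM in RIP, 0 and 87.1 in Mock, and 7.97 and 7.81 in Input, and its Mock value came from 13 reads of Mock replicate 2. SAUR78 (AT1G72430) had 14.0 and 14.4 FPKM in RIP, 4.19 and 0 in Mock, and 22.003 and 24.07 in Input. SAUR6 had 8.92 and 24.8 FPKM in RIP, 0 and 4.63 in Mock, and 21.4 and 26.3 in Input. SAUR50, which promotes cotyledon opening, had 14.7 and 19.5 FPKM in RIP, 5.66 and 0 in Mock, and 11.5 and 12.5 in Input. The Mock values of SAUR78, SAUR6 and SAUR50 were 1 read each, so only SAUR66 reached 3 reads, in 1 library of 2.

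In Mock against Input, 10 of 40 members were lower, beside 41.0% of all features, and none was higher, beside 0.715%. The 10 were SAUR62, SAUR63, SAUR64, SAUR65, SAUR32, SAUR31, SAUR14, SAUR16, SAUR21 and SAUR30, each at 0 in both Mock libraries. At their Input share, 1.38 to 14.5 Mock reads would fall in both libraries together. For SAUR62, SAUR63, SAUR64 and SAUR65 at most 1.43 would fall in either library, and for SAUR21 1.89 and 1.47. All are below the floor of 3 reads, so the zeros of these genes cannot show a lower level. None was higher at an unadjusted p under 0.05 in limma, and voom called 1, SAUR13, which had 0 reads in both Mock libraries. The members' median log2 fold change was -1.88, beside -2.70 over all features, but 1.21 after quantile normalization and 0.20 with voom. In limma on only Mock and Input, 16 members were lower, beside 51.6% of all features, and 0 higher, beside 0.535%. Without Mock replicate 1 the members' median log2 fold change was -1.88, beside -2.54 over all features. It was -1.93 without Input replicate 1 and -1.86 without Input replicate 2, beside -2.70 over all features in each.

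A putative target had to be higher in RIP than in Input, higher in RIP than in Mock, and at 2 CPM or more in every RIP library. These criteria were met by 2 of 40 members (5.0%), beside 0.96% of all features. They were SAUR72, which was named when the members were chosen, and SAUR13. In limma on only the 2 groups compared neither met them, since no member passed against Mock, and without either Input library neither did.

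The partners of SAUR proteins in acid growth were not called in RIP against Input. All 9 clade D PP2C phosphatases were tested, with 0 higher and 0 lower and a median log2 fold change of 0.12 beside -0.52 over all features. Among the 9, 1 had an unadjusted p under 0.05 in limma, beside 6798 of the 19997 features (voom called 0 of the 9). PP2C.D1 had 28.0 and 21.2 FPKM in RIP, 0 and 0 in Mock, and 13.7 and 13.1 in Input. Against Mock, 3 of the 9 were higher in RIP (PP2C.D1, PP2C.D7 and PP2C.D8), all with 0 Mock reads, beside 34.3% of all features, and 4 of the 9 were lower in Mock than in Input, beside 41.0% of all features. Of the 11 AHA genes 8 were tested, with 0 higher and 0 lower in RIP against Input and a median of -0.58. Among the 8, 4 had an unadjusted p under 0.05 in limma, beside the same 6798 of 19997 features (voom called 0 of the 8). AHA1, a main plasma membrane pump, had 186.5 and 198.5 FPKM in RIP, 119.3 and 228.4 in Mock, and 136.5 and 132.3 in Input. AHA2, the other main pump, had 81.8 and 54.2 FPKM in RIP, 41.0 and 19.3 in Mock, and 116.5 and 119.0 in Input. AHA5 and AHA11 were higher in RIP than in Mock, where both had 0 reads, and AHA5, AHA7 and AHA11 were lower in Mock than in Input, that is 2 and 3 of the 8 tested, beside 34.3% and 41.0% of all features.

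Sequence features of auxin response and RNA decay were looked for in the members. The core of the auxin response element, TGTCTC on either strand, lay in the window from 250 bases before to 50 bases after the annotated start in 8 of 52 members (15.4%), beside 14.2% of 27443 genes. The DST core ATAGAT on the sense strand lay in the last 250 bases of the gene in 9 of 52 (17.3%), beside 9.25% of 27444 genes. SAUR72 and SAUR13 held neither. SAUR15 and SAUR62 held both, and all 4 members of the SAUR29 to SAUR26 run, genes tied to growth at warm temperature, held ATAGAT. The sites of SAUR15 and of the run are given in 30 bases with the match in capitals.
SAUR15, auxin response element: tgtgatgtctttGAGACAaataagccccaa
SAUR15, DST core: aatatacaatacATAGATcgtaattgatca
SAUR29, DST core: ttttaactgtagATAGATaacaattttttc
SAUR28, DST core: attttcttgtaaATAGATtgacaaattttc
SAUR27, DST core: taattactgtagATAGATgagaattttttt
SAUR26, DST core: tattccatgtgaATAGATaacatttttttc
They lie at chr4:18125953-18125982 and chr4:18126613-18126642 (SAUR15, plus strand), chr3:976881-976910 (SAUR29, minus), chr3:980065-980094 (SAUR28, minus), chr3:981605-981634 (SAUR27, plus) and chr3:983547-983576 (SAUR26, plus), in TAIR10.1. A match is a description of these letters, not evidence of a working element. The SAUR29 to SAUR26 run was low throughout, summing to 2.50 and 1.02 CPM in RIP, 0 and 0 in Mock, and 5.31 and 6.25 in Input. SAUR29 had 3.29 and 0 FPKM in RIP, 0 and 0 in Mock, and 3.54 and 4.11 in Input, from 4 and 0 reads in RIP.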

How the data were processed

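RNA of 6 libraries (2 RIP, 2 Mock, 2 Input) was depleted of rRNA and sequenced as single-end 75 bp reads. The authors mapped reads with STAR, counted them by strand in Union mode and deposited values described as counts. The deposited values are FPKM, scaled by the authors to exon length and library total, as tested on the file. Multiplied by merged exon length, 99.2 to 99.3% of annotated features above 0 gave whole reads (tolerance 0.02), from which reads and CPM were recovered. The labels name the build TAIR10. Coordinates, sequences and gene names come from RefSeq TAIR10.1, which has AT1G29510 as SAUR68 with the synonym SAUR67. It is called SAUR67 here.

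Log2(FPKM + 1) was fitted with limma 3.58.1 (R 4.3.3) over all 6 libraries, with moderated variances (empirical Bayes with trend) and p-values adjusted by Benjamini-Hochberg over all features tested. The planned count test was replaced because the table holds FPKM. Fold changes on this scale understate changes of low genes. The call thresholds are those in the methods of the study, with CPM used for TPM. Intervals are exact and cover counting error only.

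Members and gene lists were chosen with earlier results of these data known. Genes named with values are those called in RIP against Input, those with Mock reads, the 5 highest and 5 lowest fold changes, the 5 highest in Input and 1 per tandem run. SAUR71, SAUR41 and SAUR15 were named after their values were seen. The alternatives were other pseudocounts, filters, scalings, thresholds, voom, a replicate block, 2-group fits and leaving out each library.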

Additional observations from a re-analysis of the deposited data

How the results depend on the processing

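The number of SAUR genes called depended on the spread, pseudocount and scaling. Higher in RIP than in Input were 2, against 1 in the fits of only the 2 groups, 1 with a pseudocount of 5 FPKM, 0 with voom, and 0 to 3 without single libraries. Lower were 2, against 3 in the fits of only the 2 groups, 10 with a pseudocount of 0.1 FPKM and 10 at the looser thresholds. That number was 0 with a pseudocount of 5 FPKM, 0 after quantile normalization and 0 with voom. Higher in RIP than in Mock were 11, against 0 in the 2-group fits, 6 with a pseudocount of 5 FPKM, 1 after quantile normalization, 2 with voom, and 4 to 21 without single libraries. Lower were 0, against 10 after quantile normalization, 10 with voom, and 0 to 1 without single libraries. Higher in Mock than in Input were 0, against 1 with voom and 0 to 1 without single libraries. Lower were 10, against 16 in the 2-group fits, 26 with a pseudocount of 0.1 FPKM, 27 at the looser thresholds, 6 with a pseudocount of 5 FPKM, 0 after quantile normalization, 2 with voom, and 5 to 16 without single libraries. Targets were 2, against 0 in the 2-group fits, 1 with a pseudocount of 5 FPKM, 1 after quantile normalization, 0 with voom, and 0 to 3 without single libraries. The members' mean share in RIP was 271.8 CPM, against 348.2 per 1e+06 protein-coding reads. The cause of these changes was not tested.

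Quantile normalization turned the log2 fold change of RIP over Mock to -0.31 in SAUR41, -0.10 in SAUR64 and -0.029 in SAUR51, and that of Mock over Input to 0.52 in SAUR64 and 0.14 in SAUR65. It changed the median over all features to -0.17 (otherwise 2.13) in RIP against Mock and to 0.12 (otherwise -2.70) in Mock against Input, where it called 228 higher and 1785 lower (otherwise 6853 and 36) and 161 and 574 (otherwise 143 and 8205). In RIP against Input it called 273 and 298 (otherwise 296 and 1155). Median-of-ratios scaling changed these medians to 1.96 and -2.51. Scaling to protein-coding genes moved the median of RIP against Input to -0.23, with 401 higher and 1040 lower.

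Between libraries of equal replicate number, deviations from the group means correlated at 0.00310 (RIP and Input), -0.0162 (RIP and Mock) and 0.0124 (Mock and Input). The pooled SD on the log2 scale was 0.088 in Input, 0.93 in RIP and 1.73 in Mock. With such unequal spread these values cannot tell whether libraries of equal number were paired. With the replicate block 0 members were higher in RIP than in Input (SAUR72 adjusted p = 0.0110, SAUR13 0.0192), 7 were higher in RIP than in Mock, and 0 were targets.

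Over all features the alternatives gave 56 to 945 higher and 7 to 3261 lower in RIP against Input, 0 to 9985 and 0 to 1861 in RIP against Mock, 62 to 425 and 574 to 12465 in Mock against Input, and 0 to 782 targets. The members' median in RIP against Mock was 1.80, against -0.53 after quantile normalization and -0.42 with voom. Depth limits both pull-downs: 3 Mock reads equal 15.2 and 19.5 CPM, and for 13 members with no RIP reads fewer than 3 would be reached at the Input share.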
